A study of Mus musculus with 8 samples.

Results

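The GM-CSF receptor and its feedback genes were followed in mouse dendritic cells that had taken up ferroptotic cells. The genes were chosen by name: the receptor chains Csf2ra, Csf2rb, Csf2rb2 and Il3ra, the feedback inhibitors Cish, Socs1, Socs2 and Socs3, and the kinase gene Pim1. These 9 genes were each found once by Ensembl identifier among the 55487 gene rows of the count table, and all 9 passed the filter on low counts. The data were bulk mRNA sequencing of bone marrow-derived dendritic cells (BMDC) from wild-type, immunocompetent C57BL/6J mice, with 4 libraries in each of 2 groups. Both groups had been grown from the marrow of females aged 6 to 8 weeks in GM-CSF at 20 ng/ml, for 10 days per the labels and 9 to 10 days per the methods. The first group, BMDC, was left untreated. The second, BMDC-fer, had been co-cultured for 4 h with ferroptotic Jurkat cells, a human T cell leukaemia line killed with 0.5 µM ML162 for 14 h, and was sorted for BMDC that had engulfed them. ML162 inhibits GPX4, the enzyme that removes lipid peroxides. GM-CSF cultures of marrow hold a mixture of CD11c-positive myeloid cells. A sort is described for BMDC-fer and not for the untreated group, and whether GM-CSF was present during the co-culture is not given in the sources used here. The comparison of the groups therefore cannot tell uptake apart from co-culture or sorting.

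GM-CSF binds an alpha chain, encoded by Csf2ra, which pairs with the common beta chain encoded by Csf2rb. The beta chain carries JAK2, which phosphorylates STAT5, and STAT5 in turn switches on genes whose products damp the same receptor. Among these are CIS (Cish) and the SOCS proteins, which bind the receptors or JAKs and recruit a ubiquitin ligase. STAT5 also switches on the gene of the survival kinase PIM1. Mice have a further beta chain, encoded by the neighbouring Csf2rb2, that works with the IL-3 alpha chain (Il3ra) only. SOCS1 is best known for shutting down interferon signalling, SOCS2 for growth hormone signalling and SOCS3 for signalling through gp130 and the G-CSF receptor.

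STAT5 binds the palindrome TTCNNNGAA, so the start of each gene was searched for it. RefSeq promoter windows of 300 bases, from 250 before to 50 after the transcription start on GRCm38.p6, matched 7 of the 9 genes, all but Csf2rb and Socs2. The palindrome lay in the windows of Cish, Csf2rb2 and Socs3, and these stretches are shown because STAT5 is the factor through which GM-CSF reaches this gene group. Each stretch is printed 5′ to 3′ on the gene's own strand, with TTCNNNGAA in capitals.
Cish chr9:107296654-107296683 plus strand: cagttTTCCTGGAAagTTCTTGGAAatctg
Csf2rb2 chr15:78305718-78305746 minus strand: gtgtccacaaTTCTGAGAAgcaagcaaag
Socs3 chr11:117969502-117969530 minus strand: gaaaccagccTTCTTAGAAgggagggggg
The 2 matches in Cish began 0 and 11 bases after the RefSeq start, inside an exon of the longer GENCODE gene. The match began at position -15 in Csf2rb2 and at position -154 in Socs3, counted from the RefSeq start. That of Csf2rb2 lay upstream of the annotated gene, and that of Socs3 inside it, in an intron of its longest GENCODE transcript and upstream of the other starts. Of 32851 windows in the genome, 8.3% held TTCNNNGAA and 0.457% held it at least 2 times. Both strands were searched, and the palindrome reads the same on either. No match was found in the windows of Csf2ra, Il3ra, Socs1 or Pim1. A spacing bound by STAT6, with 4 bases between TTC and GAA, was in none of the 7 genes and in 6.95% of all windows. The PU.1 core GAGGAAGT was in Csf2rb2 alone, away from the STAT5 palindrome, and in 3.2% of all windows. These matches describe the letters of the windows and were not tested for binding.

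Sequencing was deep, with 39326672 to 50532209 assigned reads a library, and 15411 genes passed the filter. The smallest count behind any of the 9 genes was 586 reads, for Il3ra in BMDC replicate 1. Replicates 1 and 2 stood apart from replicates 3 and 4 in both groups, and the labels do not say why. Libraries of a group differed by a chi-square of 9 to 40.9 per gene within these replicate sets and of 133 to 346 across them. Replicates 3 and 4 were the closest, at 9 in BMDC and 15.3 in BMDC-fer. BMDC-fer was therefore compared with BMDC over all 8 libraries and again within each set. A fit within a set has 2 libraries a group, so its SE and p-values measure only the smaller spread inside that set. The test of a difference in effect between the sets likewise measures only the spread inside the sets. The split into sets was itself taken from earlier results of these data. Nothing in the labels says that the libraries came from separate animals, so p-values measure the spread between these libraries only. In bulk RNA, fewer cells of a type and less RNA per cell cannot be told apart.

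None of the 9 genes was called between BMDC-fer and BMDC over all libraries, where a call required an adjusted p of at most 0.05 and an absolute log2 fold change of at least 0.58 (quasi-likelihood test of edgeR, p adjusted by Benjamini-Hochberg over all tested genes). The background was 9.38% of tested genes called, 3.47% higher and 5.91% lower in BMDC-fer. An unadjusted p under 0.05 was reached by 3 of the 9, Cish, Socs1 and Socs2, against 29.9% of all tested genes. DESeq2 called 1 of the 9, Socs1, higher in BMDC-fer, against 12.5% of the genes it tested, 4.56% in that direction. The median log2 fold change of the 9 genes was 0.03, beside 0.0007 over all tested genes. Fitted with the replicate number as a block, none was called either, against 13.0% of tested genes, but Cish then passed on adjusted p. The effect, meaning the log2 fold change of BMDC-fer over BMDC, differed between the replicate sets in 6 of the 9 genes, against 37.8% of tested genes (edgeR, interaction of group and set). For this difference an adjusted p of at most 0.05 was enough, with no minimum size. The count is therefore not on the same threshold as the calls between groups.

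**Figure D1:**
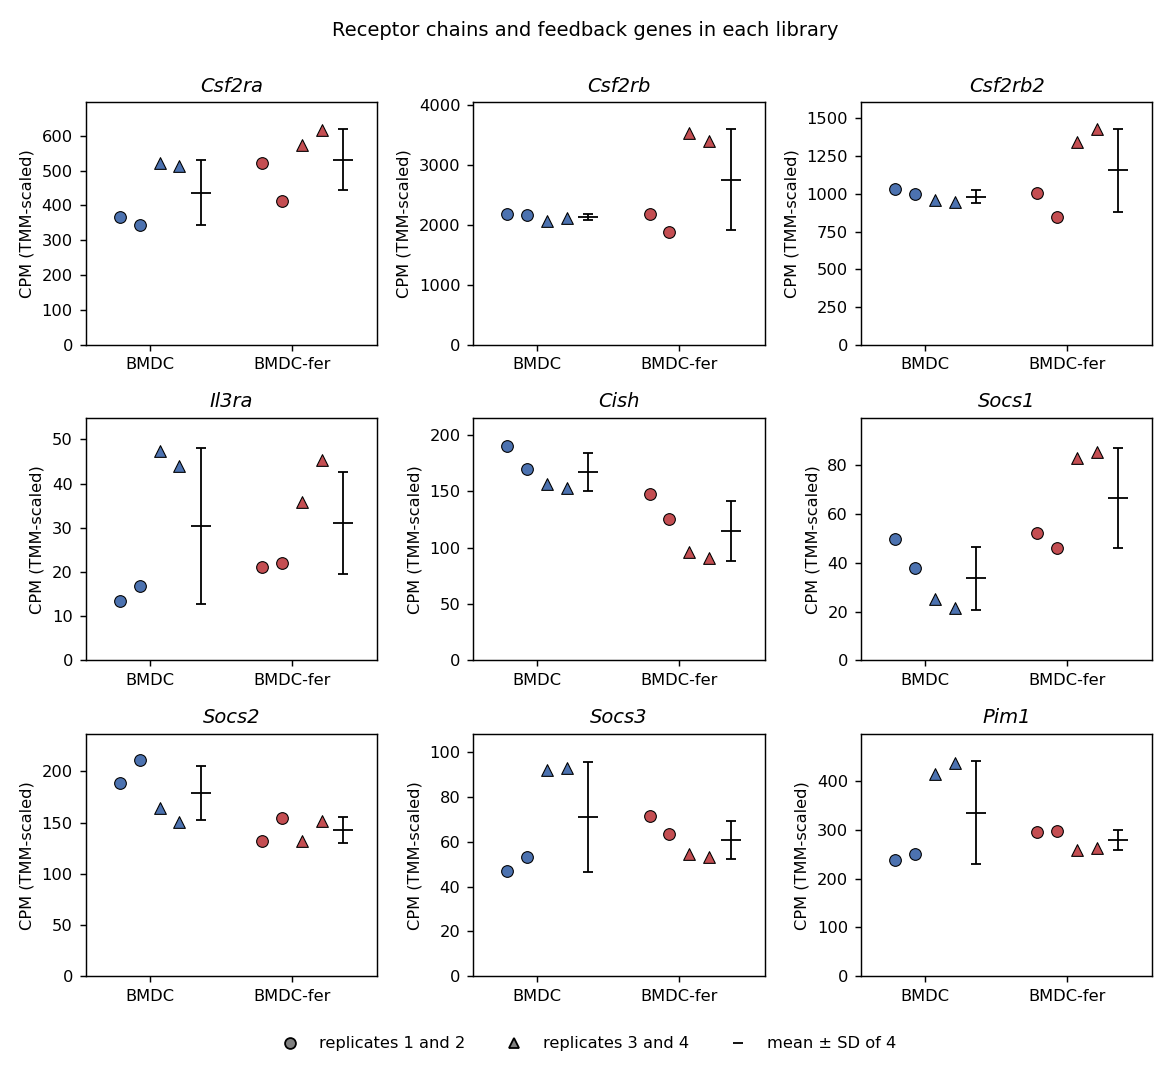
Level of each gene in every library, as TMM-scaled CPM (y axis, from 0), for BMDC (blue) and BMDC-fer (red). Circles are replicates 1 and 2, triangles replicates 3 and 4, and the bars give mean ± SD of 4 libraries. Only for Cish do the groups not overlap, and for Socs3 and Pim1 the triangles are lower in BMDC-fer while the circles are higher.

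In the plot of levels by library, the mean of the circles and that of the triangles in BMDC lay further apart than the group means for 5 of the 9 genes, Csf2ra, Il3ra, Socs2, Socs3 and Pim1. Levels between genes were compared per length, as RPKM, the reads scaled to the length of all annotated exons and to library size. In BMDC the common beta chain Csf2rb was highest at 293 ± 6.72 RPKM (SD, n = 4), then Csf2rb2 at 207 ± 8.48, Csf2ra at 152 ± 32.8 and Pim1 at 99.7 ± 31.3. Cish followed at 26.1 ± 2.64, Socs3 at 24.6 ± 8.53, Socs2 at 18.7 ± 2.81, Socs1 at 11.6 ± 4.43 and Il3ra at 10.2 ± 5.96. The ranges of neighbours in this order overlapped from Csf2ra to Pim1 and at each step from Cish down to Il3ra. The steps from Csf2rb to Csf2rb2, from Csf2rb2 to Csf2ra and from Pim1 to Cish did not overlap. In BMDC-fer the first 4 genes kept their order, and Socs1, at rank 8 in BMDC, was at rank 5 with 22.9 ± 7.02 RPKM. Below Pim1 the BMDC-fer ranges all overlapped from one neighbour to the next. Those 5 ranks also depend on the length used. With the longest transcript in place of all exons, Socs1 was at rank 9 in BMDC and at rank 8 in BMDC-fer. Socs2 was then at rank 5 in both groups, at 42.1 RPKM in BMDC and 33.7 in BMDC-fer.

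**Figure D2:**
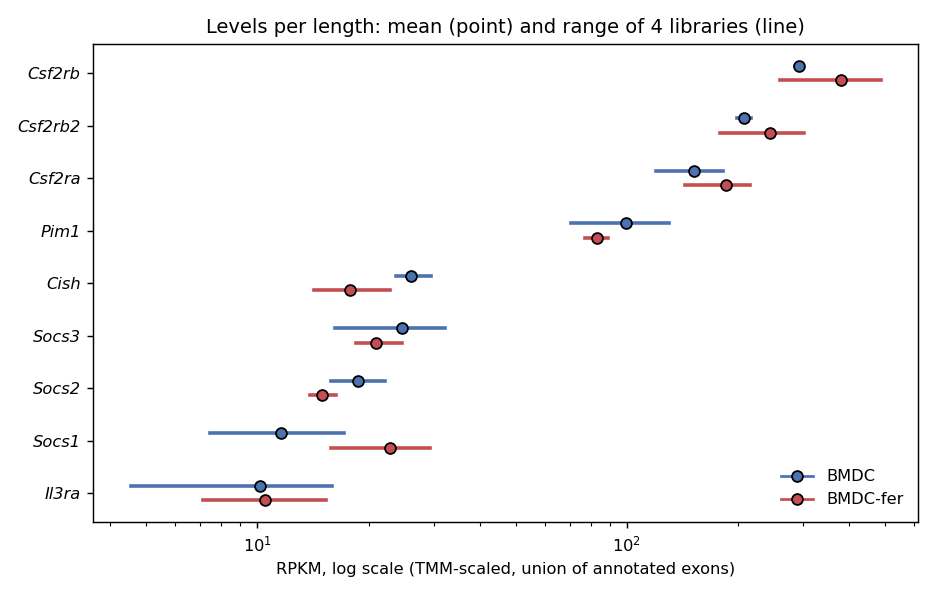
RPKM of each gene on a log axis, with the mean of 4 libraries as a point and their range as a line, for BMDC (blue) and BMDC-fer (red). Csf2rb, Csf2rb2, Csf2ra and Pim1 lie above the other 5 genes in both groups, and the red point of Socs1 lies above its blue point.

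The ligand-binding chain of the GM-CSF receptor, Csf2ra (ENSMUSG00000059326, chr19:61223957-61228429, minus strand, GRCm38), was at 366, 345, 522 and 514 CPM, counts scaled to library size by TMM, in BMDC replicates 1 to 4. Its level was 521, 413, 574 and 616 CPM in BMDC-fer replicates 1 to 4. Each BMDC-fer library was above the BMDC library of the same number, while the groups overlapped. BMDC replicates 3 and 4 were above BMDC-fer replicate 2, and BMDC replicate 3 was also just above BMDC-fer replicate 1. The log2 fold change was 0.28 (SE 0.19, adjusted p = 0.342), and 0.29 with the replicate block (adjusted p = 0.118). Within sets it was 0.40 (adjusted p = 0.0701) in replicates 1 and 2 and 0.21 (adjusted p = 0.0186) in replicates 3 and 4, where it passed on p but not on size. These 2 effects did not differ detectably, with a difference of -0.19 (SE 0.16, adjusted p = 0.366).

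The common beta chain, Csf2rb (ENSMUSG00000071713, chr15:78325752-78353847, plus strand), was nearly constant in BMDC, at 2182, 2163, 2073 and 2118 CPM. BMDC-fer gave 2187, 1885, 3543 and 3403 CPM. BMDC-fer replicates 3 and 4 stood above all 6 other libraries, and BMDC-fer replicate 2 was the lowest of the 8. Over all libraries the log2 fold change was 0.37 (SE 0.22, adjusted p = 0.289). It was -0.09 (SE 0.13, adjusted p = 0.658) in replicates 1 and 2, and in replicates 3 and 4 alone Csf2rb rose by 0.74 (SE 0.06, adjusted p = 1.01e-05). The difference between the sets was 0.82 on the log2 scale (SE 0.14, adjusted p = 0.00192).

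Csf2rb2 (ENSMUSG00000071714, chr15:78282507-78305721, minus strand), the IL-3-specific beta chain, had the same shape. BMDC gave 1031, 998, 956 and 943 CPM, and BMDC-fer 1005, 849, 1345 and 1427 CPM. Again BMDC-fer replicates 3 and 4 were the highest libraries and BMDC-fer replicate 2 the lowest. The log2 fold change was 0.24 (SE 0.18, adjusted p = 0.399) over all libraries, -0.12 (adjusted p = 0.503) in replicates 1 and 2 and 0.56 (adjusted p = 6.8e-05) in replicates 3 and 4, just under the size needed for a call. The sets differed by 0.68 (SE 0.14, adjusted p = 0.00511). The 2 beta chains are near-identical in places: 12.3% of the 50-base words of Csf2rb transcripts occur in Csf2rb2, and 18.4% the other way. How the counting treated reads that fit both is not given in the sources used here, so each single value is uncertain to that extent. Summed, the pair gave a log2 fold change of 0.33 (SE 0.21, adjusted p = 0.329). The ratio of Csf2rb to Csf2rb2 reads was 2.12 to 2.25 in BMDC and 2.18, 2.22, 2.63 and 2.39 in BMDC-fer replicates 1 to 4. Per length, Csf2rb exceeded Csf2ra by a ratio of 2.36, 2.47, 1.57 and 1.63 in BMDC and 1.66, 1.8, 2.44 and 2.18 in BMDC-fer. The chain ratio thus overlapped between groups, and its order across the replicate sets was opposite in them.

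The IL-3 alpha chain, Il3ra (ENSMUSG00000068758, chr14:14346275-14356011, plus strand), followed the replicate sets more than the groups. It was at 13.5, 16.9, 47.3 and 43.9 CPM in BMDC and at 21.2, 22, 35.8 and 45.3 CPM in BMDC-fer. Replicates 3 and 4 were above replicates 1 and 2 in both groups, by a ratio of 3.01 in BMDC and of 1.87 in BMDC-fer. Between groups the log2 fold change was 0.03 (SE 0.44, adjusted p = 0.972). Leaving out each library in turn gave -0.21 to 0.33, and the 4 libraries whose removal turned the direction were BMDC replicates 1 and 2, at -0.21 and -0.16, and BMDC-fer replicates 3 and 4, at -0.04 and -0.20. Within sets it was 0.51 (adjusted p = 0.0415) in replicates 1 and 2 and -0.16 (adjusted p = 0.229) in replicates 3 and 4, a difference of -0.68 (SE 0.19, adjusted p = 0.0236). This difference was lost without any of BMDC replicates 1, 3 and 4 or BMDC-fer replicate 3, with an adjusted p of up to 0.0951. Of the neutrophil markers, Mmp8 also stood higher in replicates 3 and 4 of both groups, at 1014 and 1099 CPM against 383 and 562 in BMDC and at 1443 and 1333 against 683 and 865 in BMDC-fer. The other 9 neutrophil markers, summed, did not follow the sets, at 263, 45.2, 232 and 60.6 CPM in BMDC and 43.9, 13.9, 19.3 and 18.6 in BMDC-fer. Their part in the Il3ra level was not tested.

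Cish (ENSMUSG00000032578, chr9:107296026-107302784, plus strand), which encodes the STAT5-induced inhibitor CIS, was the only gene of the 9 whose groups did not overlap, as in 22.9% of all tested genes. BMDC gave 190, 170, 156 and 153 CPM and BMDC-fer 147, 125, 95.8 and 91 CPM. Each BMDC-fer library was below every BMDC library, and within each group replicates 3 and 4 were the lower. The mean was 167 ± 17 CPM (SD, n = 4) in BMDC and 115 ± 26.1 in BMDC-fer, 1.46-fold lower, at a log2 fold change of -0.55 (SE 0.17, adjusted p = 0.0663), so it did not pass. With the replicate block Cish passed on adjusted p, at -0.57 (SE 0.11, adjusted p = 0.0218, as 9.55% of tested genes did in that direction), but remained under the size needed for a call. It was -0.40 (SE 0.12, adjusted p = 0.0478) in replicates 1 and 2, and Cish fell by 0.71 (SE 0.06, adjusted p = 1.81e-05) in replicates 3 and 4 alone. The difference between the sets was -0.32 (SE 0.14, adjusted p = 0.0947). Leaving out 1 library at a time gave -0.68 to -0.44, and Cish was called only without BMDC-fer replicate 1 (-0.68, adjusted p = 0.0413). The exact two-sided permutation test gave 0.0286, unadjusted and the smallest p that 4 against 4 allows. Mast cells and basophils also express the IL-3 receptor, and their 10 summed markers were lower in BMDC-fer, at 5.85 to 14.7 CPM against 17.8 to 45.7, led by Gata2, with 0 of 3 tested markers called by edgeR (1 with the replicate block, Cpa3, lower, adjusted p = 0.0261) and Mcpt4 at 0 in every library. With the block 8.13% of all tested genes were called lower. Some markers of dendritic cells, macrophages, neutrophils, eosinophils and T cells were called lower by edgeR. The part of any of these cells in the Cish level was not tested.

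Socs1 (ENSMUSG00000038037, chr16:10782240-10785536, minus strand), the inhibitor of JAKs and interferon receptors, had the largest fold change of the 9. It was at 49.9, 37.9, 25.1 and 21.7 CPM in BMDC and at 52.2, 46, 82.9 and 85.4 CPM in BMDC-fer. Each BMDC-fer library exceeded its BMDC counterpart, by 0.07 and 0.28 on the log2 scale in pairs 1 and 2 and by 1.72 and 1.97 in pairs 3 and 4. The groups overlapped through BMDC replicate 1, which was above BMDC-fer replicate 2. The mean was 33.6 ± 12.9 CPM in BMDC and 66.6 ± 20.4 in BMDC-fer, 1.98-fold higher, at a log2 fold change of 0.99 (SE 0.31, adjusted p = 0.0696), so Socs1 was not called by edgeR. With the replicate block the adjusted p was 0.112. DESeq2 called it (0.99, adjusted p = 0.0214), and so did edgeR without BMDC replicate 1 (1.24, adjusted p = 0.0401) and edgeR with the replicate set as a covariate (1.00, adjusted p = 0.0463, a fit that called 7.73% of genes higher). Within sets the log2 fold change was 0.17 (SE 0.15, adjusted p = 0.427) in replicates 1 and 2, and in replicates 3 and 4 alone Socs1 rose by 1.86 (SE 0.08, adjusted p = 4.19e-07). The difference of 1.68 (SE 0.19, adjusted p = 0.000358) was the widest between sets among the 9 genes, and it had both a lower BMDC and a higher BMDC-fer level in replicates 3 and 4.

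Socs2 (ENSMUSG00000020027, chr10:95385362-95417180, minus strand), a further STAT5 target that damps growth hormone receptor signalling, was at 189, 211, 164 and 151 CPM in BMDC and at 132, 155, 132 and 152 CPM in BMDC-fer. The groups overlapped only through BMDC replicate 4, which was just below BMDC-fer replicates 2 and 4. The log2 fold change was -0.32 (SE 0.13, adjusted p = 0.137). It was -0.47 (adjusted p = 0.0302) in replicates 1 and 2, under the size needed for a call, and -0.13 (adjusted p = 0.203) in replicates 3 and 4. The difference between sets was 0.33 (SE 0.15, adjusted p = 0.121), and it passed only without BMDC-fer replicate 2 (adjusted p = 0.0443). A processed copy, Gm9847, shares most of the 4.53% of Socs2 words found in other genes, and its own count was at most 1.84% of that of Socs2.

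Socs3 (ENSMUSG00000053113, chr11:117966079-117970047, minus strand), the inhibitor of gp130 and G-CSF receptor signalling, went opposite ways in the replicate sets. BMDC gave 46.9, 53.1, 92 and 93 CPM, and BMDC-fer 71.5, 63.6, 54.6 and 53.4 CPM. BMDC-fer was above BMDC in pairs 1 and 2 and below it in pairs 3 and 4, so all 4 BMDC-fer libraries fell between the BMDC sets. The log2 fold change over all libraries was -0.23 (SE 0.24, adjusted p = 0.55). It was 0.44 (SE 0.12, adjusted p = 0.0326) in replicates 1 and 2, under the size needed for a call, while Socs3 fell by 0.76 (SE 0.06, adjusted p = 9.91e-06) in replicates 3 and 4 alone. The difference was -1.21 (SE 0.12, adjusted p = 0.000231).

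Pim1 (ENSMUSG00000024014, chr17:29490753-29496112, plus strand), a serine/threonine kinase that supports survival downstream of STAT5, followed the Socs3 pattern. Its level was 238, 251, 415 and 437 CPM in BMDC and 296, 298, 259 and 263 CPM in BMDC-fer. The BMDC-fer libraries lay close together, again between the BMDC sets. The log2 fold change was -0.26 (SE 0.21, adjusted p = 0.435) over all libraries and 0.29 (SE 0.10, adjusted p = 0.0657) in replicates 1 and 2, and Pim1 fell by 0.69 (SE 0.06, adjusted p = 2.14e-05) in replicates 3 and 4 alone. The difference was -0.99 (SE 0.10, adjusted p = 0.00026). Antisense genes overlap Pim1, Il3ra and Cish, and whether strand was used in counting is not given. Their own counts reached at most 0.0456% of the Pim1 count, 1.37% of that of Il3ra and 0.35% of that of Cish.

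Across the 9 genes, 3 kept 1 direction in all 4 same-numbered pairs (Csf2ra, Cish and Socs1), as did 44.2% of all tested genes. The direction was opposite in the 2 sets for 5 genes (Csf2rb, Csf2rb2, Il3ra, Socs3 and Pim1), against 39.3% of the genes tested in both. Within replicates 1 and 2 alone, 0 of the 9 were called by edgeR, with 4 at an adjusted p of at most 0.05 (Il3ra, Cish, Socs2 and Socs3), against 19.4% of genes called and 28.4% at that adjusted p. Within replicates 3 and 4 alone, 5 of the 9 were called against 35.7% of genes, Csf2rb and Socs1 higher (17.7% of genes were) and Cish, Socs3 and Pim1 lower (18.0% were). Of the 6 genes whose effect differed between sets, Csf2rb, Csf2rb2, Socs1, Socs3 and Pim1 kept that difference whichever of the 8 libraries was left out. Each set holds 2 libraries a group, and what sets them apart cannot be read from the labels.

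**Figure D3:**
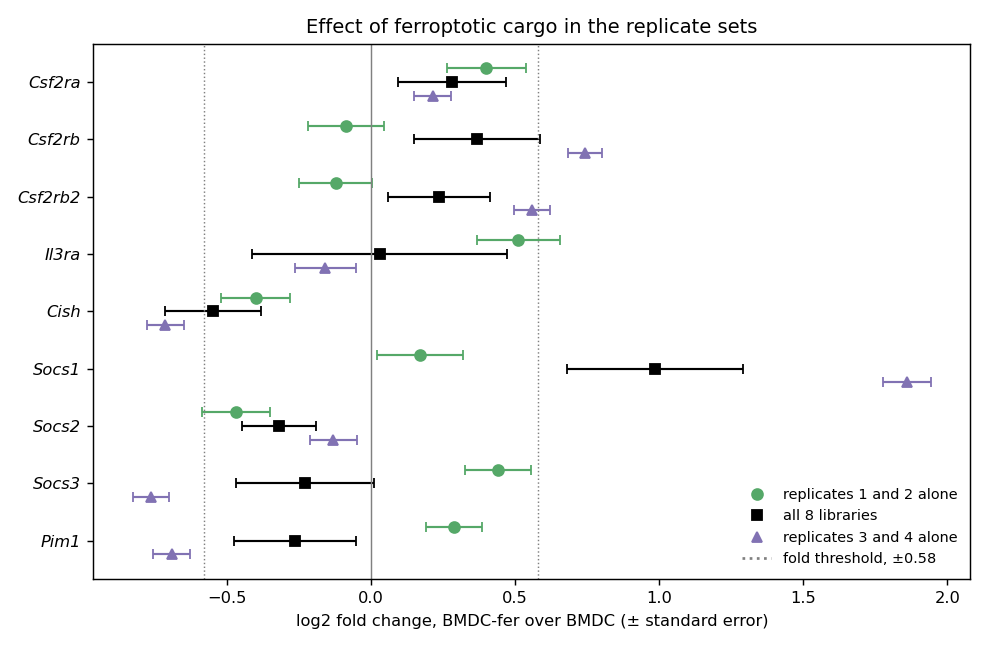
Log2 fold change of BMDC-fer over BMDC (x axis, ± SE) for each gene in replicates 1 and 2 alone (green), in all 8 libraries (black) and in replicates 3 and 4 alone (purple); dotted lines mark ±0.58. Green and purple lie on opposite sides of 0 for Csf2rb, Csf2rb2, Il3ra, Socs3 and Pim1, and Socs1 shows the widest gap.

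The rest of the pathway was read from 8 lists, of which 80 of 91 genes were tested and 13 were called, 4 of them higher (3.47% of all tested genes) and 9 lower (5.91%). With the replicate block those shares of all tested genes were 4.85% and 8.13%. Called genes other than the highest and lowest of a list were named after their values were seen. The ligands and the IL-5 receptor alpha chain (Csf2, Il3, Il5 and Il5ra) were all under the filter. DESeq2, run without that filter, called Il5ra lower (-4.98, adjusted p = 0.00719), and it called 12.5% of the genes it tested in either direction. In replicates 1 and 2 alone edgeR called Il5ra lower too (-4.85, adjusted p = 0.0146), where 19.4% of genes were called in either direction. Il5ra was at 0.53, 0.274, 0.0473 and 0.0499 CPM in BMDC and at 0, 0.0245, 0 and 0 in BMDC-fer, so few reads lie behind these calls. Csf2, the gene of GM-CSF itself, had 2 reads each in BMDC replicates 3 and 4 and 0 in the other 6 libraries, and Il3 had 0 reads in all 8.

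Among 13 receptor-proximal kinases and STAT factors, 0 rose and 2 fell, Jak2 and Stat3, with a list median of -0.10. Jak2, the kinase carried by the beta chain, was at 463, 371, 405 and 388 CPM in BMDC and at 142, 97.8, 82.2 and 76.8 CPM in BMDC-fer. It was lower in every BMDC-fer library, at a log2 fold change of -2.03 (SE 0.20, adjusted p = 0.00207). STAT5 itself was near the same level in both groups: Stat5a was at 57.8 ± 16.7 CPM in BMDC and 51.9 ± 12.6 in BMDC-fer (-0.16, adjusted p = 0.69), and Stat5b at 56.6 ± 9.46 and 53.3 ± 1.12 (-0.09, adjusted p = 0.669). Stat3 fell by 0.59 (adjusted p = 0.0313).

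Of 16 adaptors and members of the RAS-MAPK and PI3K arms, 0 rose and 1 fell, Pik3r1, the regulatory subunit of PI3K, by 0.90 (adjusted p = 0.0193), with a median of -0.10. Nras was the highest. Of 16 further inhibitors of JAK-STAT signalling, among them Socs4 to Socs7 and the PIAS proteins, 0 rose and 1 fell, the ubiquitin ligase gene Cblb, by 0.71 (adjusted p = 0.0412, and 0.0529 with the replicate block). Pias4 was the highest, and the list median was -0.02. Between replicate sets the effect differed in 10 of these 16, against 37.8% of all tested genes.

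The other PIM kinases behaved unlike each other. Pim3 was at 35.2, 36.3, 139 and 138 CPM in BMDC and 28.5, 23.3, 22.1 and 21.9 in BMDC-fer, and fell by 1.86 (SE 0.48, adjusted p = 0.0392, and 0.0765 with the replicate block). As for Pim1, the higher BMDC levels were those of replicates 3 and 4, and the effect differed between sets by -2.19 (adjusted p = 4.19e-05). Pim2 was at 3 ± 1.17 CPM in BMDC and 3.18 ± 0.89 in BMDC-fer (0.09, adjusted p = 0.881).

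Of 15 genes known to respond to STAT5 or GM-CSF, 0 rose and 2 fell, with a median of -0.28. Irf4, a transcription factor of antigen-presenting cells, fell by 1.42 (adjusted p = 0.0193), and the chemokine gene Ccl22 by 2.12 (adjusted p = 0.0454). With the replicate block, 2 were called higher and 5 lower. The survival gene Bcl2l1, at 77.5 ± 17.8 CPM in BMDC and 151 ± 63 in BMDC-fer, was then called (0.89, adjusted p = 0.0124), and Myc with it (0.92, adjusted p = 0.0216). Il2ra, the IL-2 receptor alpha chain, was called lower (-2.51, adjusted p = 0.00384), with Ccnd2 (adjusted p = 0.00989) and Ccl17 (adjusted p = 0.0344). The called members of this list thus moved in both directions.

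Of 11 cytokines known to induce SOCS genes, 6 were tested, with a median of -0.14. Csf1, the macrophage growth factor, rose from 111 ± 30.7 to 225 ± 75.3 CPM (log2 1.01, adjusted p = 0.042, and 0.07 with the replicate block). Lif fell from 14 ± 7.91 to 2.54 ± 0.838 CPM (log2 -2.46, adjusted p = 0.0129). Tnf, the highest at 1.15 (adjusted p = 0.197), was called with the replicate block (adjusted p = 0.00445). Il10, Il12a, Ifnb1, Ifng and Csf3 were under the filter of edgeR over all libraries. DESeq2, run without that filter, called Ifnb1 higher (log2 3.78, adjusted p = 0.00483), as 4.56% of the genes it tested. In replicates 1 and 2 alone edgeR called Ifnb1 higher too (5.17, adjusted p = 0.00861). Ifnb1 was at 0.023, 0, 0.071 and 0 CPM in BMDC and 0.405, 0.587, 0.144 and 0.131 in BMDC-fer, so few reads lie behind these calls.

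Other receptor chains under SOCS control gave the most calls in the upward direction, 3 of 12 tested, with 1 lower and a median of 0.16. Il10rb, shared by the IL-10 family receptors, rose from 75 ± 6.02 to 148 ± 14.3 CPM (log2 0.98, SE 0.11, adjusted p = 0.00268). Ifngr2 rose by 0.59 (adjusted p = 0.0343) and Ifnar1 by 0.59 (adjusted p = 0.0253), while Il10ra fell by 0.60 (adjusted p = 0.0245). All 4 were called with the replicate block too, and between sets the effect differed in 9 of the 12, against 37.8% of all tested genes.

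**Figure D4:**
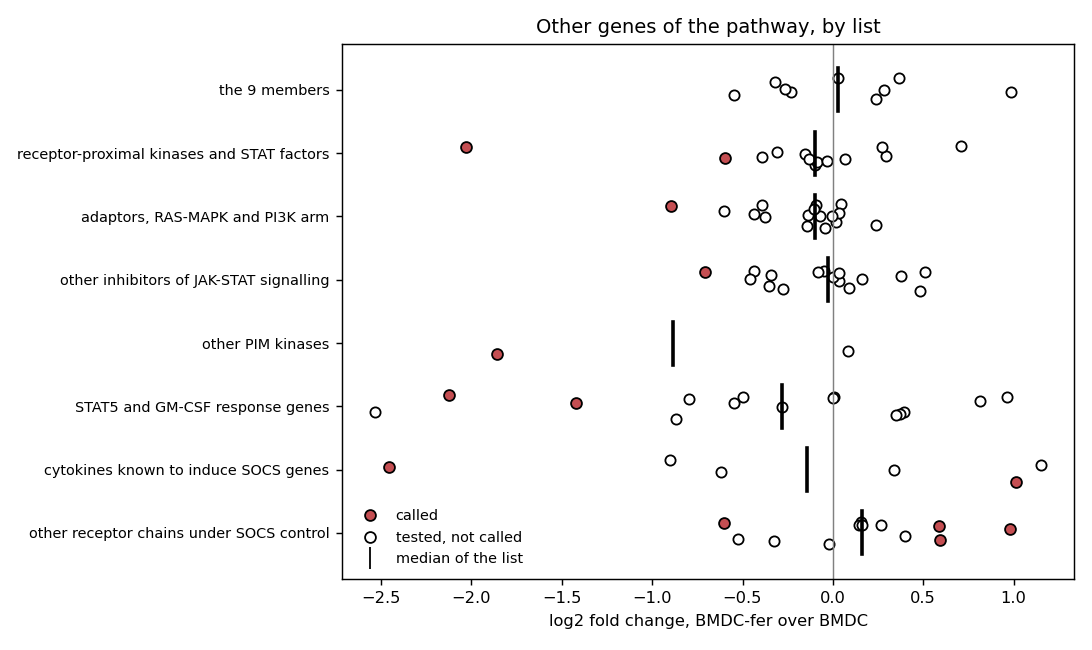
Log2 fold change of BMDC-fer over BMDC (x axis) for every tested gene of each list, with called genes in red, genes not called in white and the list median as a bar. None of the 9 genes in the top line is red, while Jak2, Pim3, Ccl22 and Lif lie furthest left among the called genes.

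Of these 13 calls, Jak2, Lif and Il10rb were kept whichever of the 8 libraries was left out. Pik3r1 and Irf4 were lost without BMDC-fer replicate 3 or 4 (adjusted p up to 0.0663 for each). Stat3 and Ifnar1 were lost without BMDC replicate 3 or 4 or BMDC-fer replicate 1, 2 or 4 (up to 0.0781 and 0.0737). Cblb, Pim3, Il10ra and Ifngr2 were lost without BMDC replicate 3 or 4 or any 1 BMDC-fer library (up to 0.103, 0.108, 0.0754 and 0.0968). Ccl22 was lost without any library but BMDC-fer replicate 1 (up to 0.104), and Csf1 without any 1 of the 8 (up to 0.0799).

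The labelled cell type was checked against its markers. Itgax, which encodes CD11c, was at 1111 ± 294 CPM in BMDC and 1033 ± 247 in BMDC-fer (-0.10, adjusted p = 0.797), and Cd74, the invariant chain of MHC class II and the highest of 9 dendritic cell markers, at 6041 ± 2661 and 2728 ± 1593 (-1.15, adjusted p = 0.131). None of the 9 was at 0 in all libraries. Summed, they ranged from 6708 to 14713 CPM in BMDC and from 3194 to 7317 in BMDC-fer, and 2 of 9 were called, Flt3 and Ccr7, both lower. With the replicate block 6 of 9 were called lower, these and Cd74 (adjusted p = 0.00822), H2-Ab1 (0.00403), Zbtb46 (0.00496) and Cd209a (0.00384). The 9 macrophage markers summed to 2681 to 3265 and 3211 to 4273 CPM, led by Csf1r, and 1 was called, Adgre1, lower. The 10 neutrophil markers summed to 607 to 1247 and 727 to 1463 CPM, led by Mmp8, with 5 called lower (S100a9, Ly6g, Ngp, Elane and Retnlg) and, with the block, 9 lower, all but Mmp8. The 5 eosinophil markers summed to 30.4 to 43.1 and 16.6 to 24.6 CPM, and the 2 tested, Siglecf and Prg2, were called lower, Prg2 alone with the block (Siglecf adjusted p = 0.074). Mouse T cell genes, whose human counterparts Jurkat cells express, summed to 37.4 to 44.2 and 35.5 to 56.6 CPM, most of it Cd28, with Lck called lower, and with the block Cd3g too. B cell markers, led by Cd79a, and erythroid markers, led by Hba-a1, summed to at most 1.44 and 0.484 CPM in any library. Of all tested genes, 5.91% were called lower in BMDC-fer, and 8.13% with the block. What part these markers have in the levels of the receptor and feedback genes was not tested.

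For the 3 genes with the largest absolute fold change, the tested genes most alike in pattern were sought by Pearson correlation of log2 CPM over the 8 libraries, among 11459 genes. Nearest to Socs1 were Ankrd13d (0.991), Ipo13 (0.987) and March3 (0.982), and nearest to Cish were Cass4 (0.994), Dscam (0.99) and Ifitm1 (0.989). Csf2rb was closest to Wdr13 (0.992), Msl1 (0.988) and Ahsa2 (0.988). The 8 points fall into 4 pairs by group and replicate set, so these values describe a shared pattern over few distinct levels.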

How the data were processed

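Poly(A)-selected RNA of 4 BMDC and 4 BMDC-fer libraries was sequenced. Per the labels, the authors aligned reads to mm10 with HISAT2 and deposited raw counts per Ensembl gene from featureCounts; versions, strand setting and treatment of multimapping reads are not given in the sources used here. Each library held 39326672 to 50532209 assigned reads, so 3 counts equal 0.0594 to 0.0763 CPM.

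Gene symbols and coordinates came from GENCODE M21 (GRCm38). Genes were filtered with filterByExpr (minimum count 10), scaled by TMM (factors 0.953 to 1.12) and tested with edgeR 4.0.16 (glmQLFit, glmQLFTest) in R 4.3.3 over all 8 libraries, with Benjamini-Hochberg adjustment. SE is the absolute log2 fold change over the square root of F. CPM are TMM-scaled. RPKM used the union of exons. Exact permutation tests (SciPy 1.17.1) used log2(CPM + 0.05). The tests were also run on simulated counts. These held no baseline shift between replicate sets, so that check does not cover this feature of the data. DESeq2 1.42.0, other scalings and filters, the replicate block, the sets alone and leaving out each library were alternatives.

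The main edgeR fit and the DESeq2 fit used the group alone and took no pairing into account. Only the replicate block and the same-numbered pairs treated replicate numbers as pairing the samples. Deviations from group means correlated at 0.313 to 0.446 in the 4 same-numbered pairs. Pairs of the same set with different numbers correlated at 0.186 to 0.38, nearly as much, so the correlation follows the set as well as the number, and in replicates 3 and 4 not more closely the number. Across sets it was -0.388 to -0.279. The labels give no reason for a pairing.

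Named genes were the 9 genes, Jak2, Stat5a and Stat5b, the highest and lowest gene of each list, the most abundant gene of each marker list and the 3 genes nearest in pattern to the 3 with the largest change. Genes and lists were chosen with earlier results of these data known. One gene that this rule names is not reported here.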

Additional observations from a re-analysis of the deposited data

Results flagged for a closer look

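The effect, BMDC-fer over BMDC, differed between the replicate sets in 6 of the 9 genes (edgeR, interaction of group and set, over 15411 tested genes, of which 37.8% differed). Taken as the log2 effect in replicates 3 and 4 minus that in replicates 1 and 2, the difference was 1.68 for Socs1, 0.82 for Csf2rb, 0.68 for Csf2rb2, -0.68 for Il3ra, -0.99 for Pim1 and -1.21 for Socs3. For Csf2rb, Csf2rb2, Il3ra, Socs3 and Pim1 the effects had opposite signs in the sets. That of Il3ra was the least stable, being lost on removal of any of 4 libraries.

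Stat5b in BMDC-fer replicate 2 lay apart from the other 3 BMDC-fer libraries, at 51.6 CPM beside 53.7, 53.7 and 54.1, with a gap of 0.8293 of the group's range. Of 84 groups of 4 values examined, 1 had such a gap, and chance gives about 1 in 20.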

How the results depend on the processing

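The count of called genes was 1445 over all libraries and 2000 with the replicate block, and the block changed no call among the 9 genes. It was 2406 with DESeq2, 2815 with the replicate set as a covariate, 225 when tested against the fold threshold, 3062 in replicates 1 and 2 alone, 5604 in replicates 3 and 4 alone and 565 to 1440 without 1 library. The lower of these were 862 and 879 without BMDC replicate 3 or 4, and 797, 867 and 565 without BMDC-fer replicate 2, 3 or 4. Of the 9 genes, 0 were called over all libraries, 1 with DESeq2, 1 with the set covariate, 5 in replicates 3 and 4 alone and 0 to 1 without 1 library. Some of these fits also held fewer libraries, and the cause of the shifts was not tested.

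Direction turned in replicates 1 and 2 alone for Csf2rb (-0.0863), Csf2rb2 (-0.12), Socs3 (0.44), Pim1 (0.29), Pim2 (-0.66), Wdr13 (-0.0575), Msl1 (-0.0773) and Ahsa2 (-0.0149), and in replicates 3 and 4 alone for Il3ra (-0.16) and Stat5b (0.14). Without 1 library, Il3ra ranged from -0.21 to 0.33, Pim2 from -0.1062 to 0.2621 and Stat5b from -0.1738 to 0.0166. The difference between sets was refitted without each library, a choice made after seeing the data, and was found in 5 to 8 of the 9 genes. Depth limits none of the 9 genes, whose smallest count was 586.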
